A study of Mus musculus with 2 samples.

Results

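The circadian clock genes Arntl, Clock, Npas2, Per1, Per2, Per3, Cry1, Cry2, Nr1d1 and Dbp were followed in nuclei of mouse hearts. These 10 genes, taken by their symbols, were all present among the 32589 genes of the deposited tables. All animals were C57BL/6 males that entered the study at 8 weeks of age and lived under equal periods of light and dark. The PD-1 inhibitor group was given an antibody to mouse PD-1, the checkpoint receptor of T cells, by intraperitoneal injection of 5 mg/kg on day 1 and again on day 14 of a cycle of 28 days. The Control group was given PBS instead. Each group was represented by 1 single-nucleus RNA library of heart tissue, and the number of hearts behind a library and the hour at which they were taken are not stated. A difference between the libraries therefore cannot be told apart from a difference between hearts or from a different hour of harvest, and no test was made.

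In mammalian cells the clock is a feedback loop of transcription. BMAL1, the product of Arntl, pairs with CLOCK or with its paralogue NPAS2 and switches on genes that carry E-boxes, among them the Per and Cry genes, whose proteins return to the nucleus and repress the pair. Nr1d1 encodes REV-ERB alpha, a nuclear receptor that represses Arntl, and Dbp encodes a PAR bZIP factor that passes the rhythm on to D-box genes. In the heart, as in other tissues, the loop runs in most cells and peaks of the Arntl arm and of the Per, Nr1d1 and Dbp arm lie at different hours of the day. Arntl, Clock and Npas2 are called here the positive limb, Per1, Per2, Per3, Cry1, Cry2 and Nr1d1 the negative limb, and Dbp an output gene kept apart from both.

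The stretch before the start of 4 negative limb genes is shown because the E-box is the element through which the positive limb acts on them. In GRCm38.p6 coordinates of RefSeq, the 250 bases before the start are chr11:69098699-69098948 on the plus strand for Per1 and, on the minus strand, chr10:85185055-85185304 for Cry1, chr2:92434070-92434319 for Cry2 and chr11:98775378-98775627 for Nr1d1. They are written 5′ to 3′, with E-boxes (CACGTG), E′-boxes (CACGTT, or AACGTG on the other strand) and D-boxes (TTATGTAA, TTATGCAA or TTACGTAA) in capitals.
Per1: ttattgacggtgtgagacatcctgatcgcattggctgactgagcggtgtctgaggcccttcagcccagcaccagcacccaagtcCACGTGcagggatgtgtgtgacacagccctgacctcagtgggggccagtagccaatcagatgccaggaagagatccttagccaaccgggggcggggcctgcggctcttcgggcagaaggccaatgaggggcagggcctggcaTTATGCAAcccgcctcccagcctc
Cry1: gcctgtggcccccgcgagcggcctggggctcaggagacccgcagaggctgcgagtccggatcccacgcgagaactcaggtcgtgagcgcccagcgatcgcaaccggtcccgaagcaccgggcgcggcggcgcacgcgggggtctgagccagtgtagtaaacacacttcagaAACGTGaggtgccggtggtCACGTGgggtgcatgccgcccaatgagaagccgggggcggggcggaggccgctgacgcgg
Cry2: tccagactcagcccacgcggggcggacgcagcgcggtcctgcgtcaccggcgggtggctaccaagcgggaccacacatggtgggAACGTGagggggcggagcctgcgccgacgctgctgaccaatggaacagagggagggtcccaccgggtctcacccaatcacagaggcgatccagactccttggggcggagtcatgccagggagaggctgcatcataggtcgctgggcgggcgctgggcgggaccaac
Nr1d1: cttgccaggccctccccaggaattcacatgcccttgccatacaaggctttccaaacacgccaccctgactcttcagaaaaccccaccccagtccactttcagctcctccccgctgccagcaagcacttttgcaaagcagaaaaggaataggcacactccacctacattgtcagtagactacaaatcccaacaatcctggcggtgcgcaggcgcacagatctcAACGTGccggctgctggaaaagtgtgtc
Of the 2 starts listed for Per1, the one shown had an E-box that began 166 bases before it and a D-box that began 24 bases before it. The window of the other start of Per1 held no match. Cry1 held an E-box and an E′-box that began 60 and 79 bases before its start. Cry2 and Nr1d1 each held 1 E′-box, at 166 and 28 bases. Both strands were searched in windows of 300 bases that also held the first 50 bases after the start, and these windows were present for 9 of the 10 genes, in 13 entries. E-boxes lay in windows of 2 of the 9 genes, E′-boxes in 3, D-boxes in 2 and ROR elements (TAGGTCA or TGGGTCA) in 1, Arntl. Over 32851 windows of the reference the shares with a match were 7.15%, 4.68%, 1.78% and 6.45%. These shares are of windows and not of genes. Since a gene could have more than 1 window, they are not on the same scale as the counts of genes. The windows of Clock, Npas2 and Dbp held no match, which says only that these letters were not there.

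The libraries held 10197 barcodes with 13177525 UMIs in Control and 7967 with 10875248 in PD-1 inhibitor, where a UMI marks a captured RNA molecule. After filters, 9522 and 7644 nuclei were kept, with medians of 1012 and 1055 UMIs. They fell into 21 clusters, of which 20 were assigned to 10 cell types by fixed markers, each marker being over 2-fold higher in its own type than in all other nuclei, so that each name stands for nuclei like that cell type by these markers. The largest types were ECs (endothelial cells, 2813 and 2512 nuclei), fibroblasts (2474 and 1970), cardiomyocytes (1275 and 1083), MPs (named from macrophage markers, 1252 and 883), mural cells (592 and 422) and mesothelial cells (484 and 462). Of the MPs, 191 and 106 nuclei formed a cluster led by Cd209a and Klri1, in which 14 of 17 MP markers were detected but none stood among its leading genes, which held Ccr2 and the proliferation gene Mki67. T cells, B cells, adipocytes and glial cells held from 240 down to 10 nuclei in a library, and clock genes were too sparse there for most comparisons. Barcodes found in both libraries numbered 48.

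Levels are given as UMIs of a gene per 1000000 UMIs of the cell type (CPM), with 95% Poisson intervals, and changes as log2 ratios of PD-1 inhibitor over Control with 95% binomial intervals. All intervals cover counting error only. UMIs of these genes varied among nuclei by more than counting alone gives, with a variance of 1.5 to 3.64 times the mean over all kept nuclei, so the intervals are narrower than the scatter of nuclei. A gene was compared where it had at least 50 UMIs in both libraries together, and was counted as different past 1.5-fold. In a single library per group, fewer cells of a type and less RNA per cell cannot be told apart for values over all kept nuclei.

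In GRCm38 with GENCODE vM21, the genes of the positive limb lie at chr7:113207465-113314126 on the plus strand (Arntl), chr5:76209868-76304792 on the minus strand (Clock) and chr1:39193731-39363236 on the plus strand (Npas2). Per1 lies at chr11:69095217-69109960 (plus), Per2 at chr1:91415982-91459324 (minus), Cry1 at chr10:85131700-85185064 (minus), Cry2 at chr2:92403646-92434043 (minus), Nr1d1 at chr11:98767932-98775333 (minus) and Dbp at chr7:45705088-45710203 (plus). Whether UMIs that fell in introns were counted is not given in the sources used here.

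Per3, a period gene, had 0 UMIs in all 18164 barcodes. In GENCODE vM21 it lies wholly inside Camta1 on the same strand (chr4:151003652-151044665, GRCm38). Of 425 protein-coding genes placed in this way inside another listed gene of the same strand, 423 (99.5%) were at 0. Of the 21418 protein-coding genes not so placed, 15.2% were at 0. These include 735 genes inside a gene of the opposite strand only, of which 21.6% were at 0. No level of Per3 was therefore read from the files, and the negative limb rested on the other 5 genes. Nr1d1, Dbp, Cry2 and Arntl overlap a listed gene of the opposite strand, by 1.07 kb (Thra), 0.737 kb (Sphk2), 23.4 kb (D930015M05Rik) and 2.39 kb (Gm45355). How counting treated strand is not stated. The shares at 0, 99.5% inside a gene of the same strand and 21.6% of the opposite strand only, show that the strands were not treated alike. Whether any reads of the partners were counted for these genes was not tested.

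The members differed in where in the heart they were found. Among the 6 largest types, Npas2 varied most in the positive limb. In Control its level was 424 CPM (401 to 448) in fibroblasts, 324 CPM (283 to 369) in mural cells, 92.7 CPM in cardiomyocytes, 55.3 CPM in mesothelial cells, 54.4 CPM in ECs and 22.6 CPM (15.3 to 32.3) in MPs. The PD-1 inhibitor library gave 319, 256, 74.4, 54.9, 52.1 and 11.9 CPM. Fibroblasts and mural cells thus stood above the other large types in both libraries, with intervals that overlapped between these 2 types in the PD-1 inhibitor library and not in Control. In MPs the level was 5.34% and 3.74% of that in fibroblasts. This is close to what free RNA gave for cardiomyocyte genes, since Ttn and Myh6 in MPs reached 3.90% and 5.51% of their cardiomyocyte level in Control and 3.14% and 4.65% in PD-1 inhibitor, and no expression of Npas2 in MPs was read from it.

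Clock, which encodes the partner of BMAL1, was the most evenly spread. Its highest level in Control, 293 CPM in MPs, was 1.69 times its lowest, 173 CPM in mesothelial cells, and only between ECs (257 CPM) and cardiomyocytes (196 CPM) did the intervals of neighbours in the order not overlap. In the PD-1 inhibitor library, where all neighbours overlapped, it ran from 235 CPM in mural cells to 152 CPM in cardiomyocytes. Arntl, for BMAL1 itself, was highest in fibroblasts, at 199 CPM (183 to 215) in Control and 184 CPM (167 to 201) in PD-1 inhibitor. Its lowest levels were 50.3 CPM in mesothelial cells and 59.6 CPM in cardiomyocytes in Control, and 49.6 CPM in cardiomyocytes and 70.3 CPM in mesothelial cells in PD-1 inhibitor, and the intervals of these pairs overlapped.

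Among the large types, Nr1d1, Dbp and Per1 were highest in mesothelial cells, the covering layer of the heart. Nr1d1 stood at 197 CPM (168 to 231) there in Control and at 157 CPM (134 to 183) in PD-1 inhibitor. In the other large types it lay between 14.3 CPM (MPs) and 64.2 CPM (mural cells) in Control and between 5.96 CPM (MPs) and 86.0 CPM (ECs) in PD-1 inhibitor, so that no interval reached that of mesothelial cells. Only the 154 and 16 nuclei of adipocytes were on the same level, at 244 and 178 CPM. Dbp was at 76.7 CPM (58.6 to 98.5) and 51.1 CPM (38.3 to 66.8) in mesothelial cells, and the next large type was cardiomyocytes in Control (17.4 CPM) and ECs in PD-1 inhibitor (17.3 CPM). Per1, an early repressor of the loop, was at 139.5 CPM (115 to 168) in mesothelial cells of Control, above the other large types by its interval. In PD-1 inhibitor it was at 99.3 CPM (81.0 to 120.4), and intervals of other types, such as those of mural cells (81.2 CPM) and MPs (64.6 CPM), reached into that range.

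Per2, Cry1 and Cry2 were sparser, and the intervals of most neighbours in their orders overlapped. Among the 6 largest types Per2 ranged from 7.45 CPM in cardiomyocytes to 36.5 CPM in mural cells in Control, and from 8.44 CPM in cardiomyocytes to 35.8 CPM in fibroblasts in PD-1 inhibitor. Cry1, a cryptochrome that binds and represses the CLOCK and BMAL1 pair, ranged from 7.55 CPM in MPs to 23.4 CPM in fibroblasts in Control. In PD-1 inhibitor it ranged from 6.95 CPM in MPs to 41.6 CPM in mural cells. Its paralogue Cry2 was highest in mural cells in both libraries, at 51.0 and 70.8 CPM, and lowest in MPs of Control (3.77 CPM) and in cardiomyocytes of PD-1 inhibitor (11.4 CPM). Cardiomyocytes, with medians of 1404 and 1425 UMIs per nucleus, had the lowest levels of Per1 and Per2 of these types in both libraries.

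**Figure D1:**
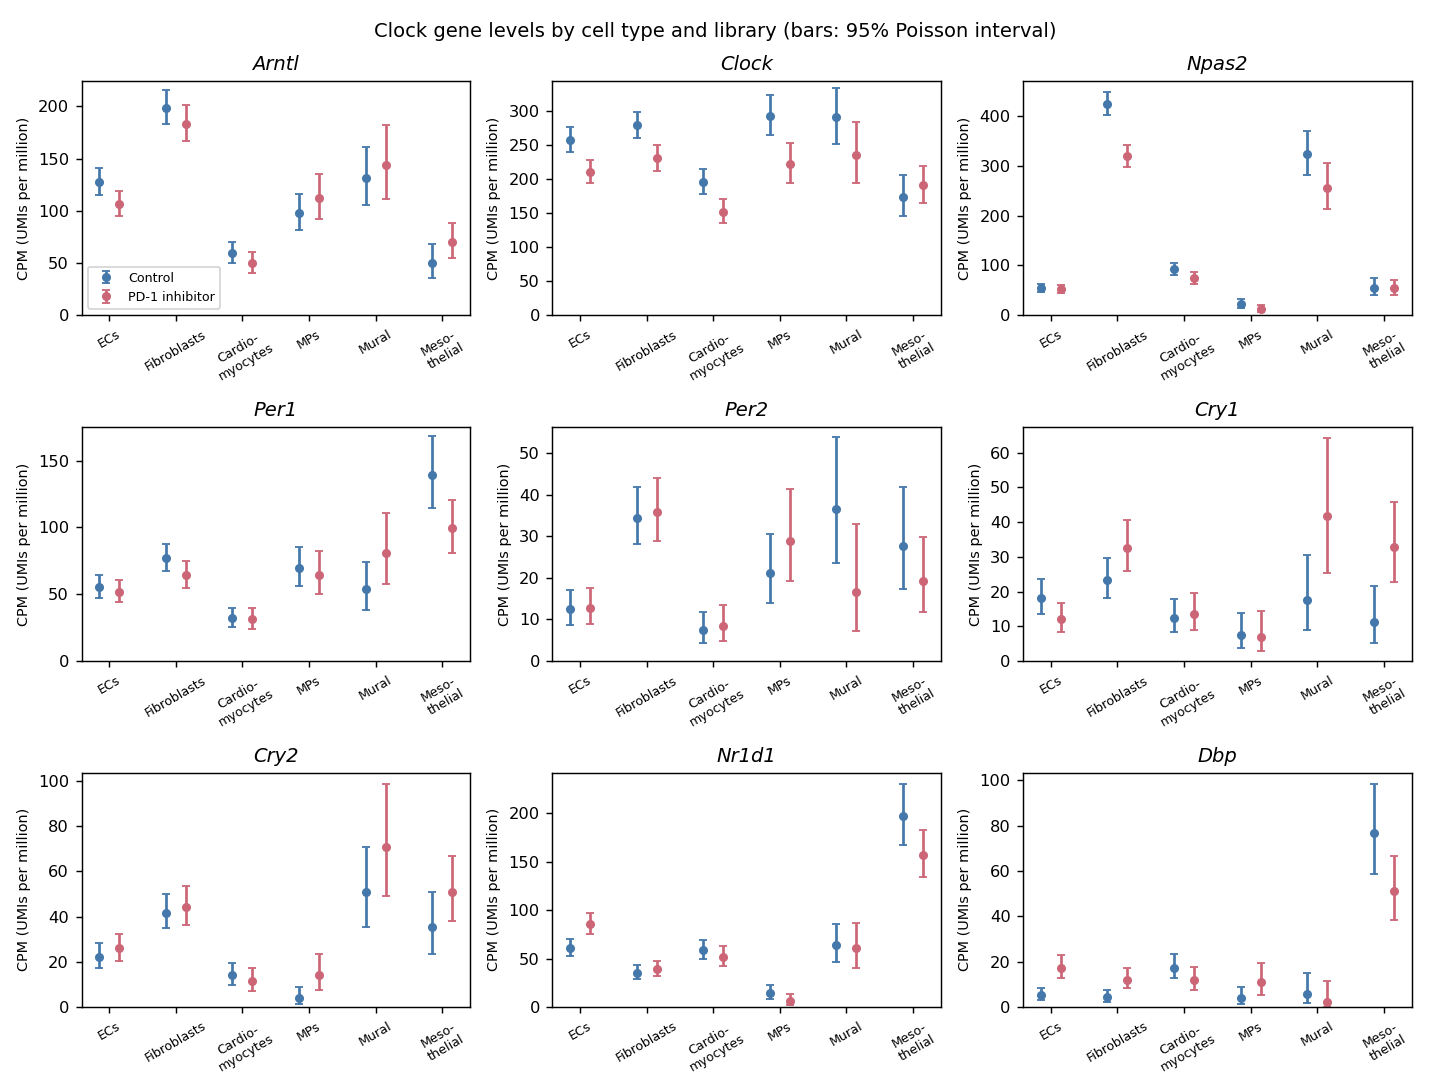
Level of each detected clock gene in the 6 largest cell types, in UMIs per 1000000 UMIs of the type (CPM), with 1 point per library and 95% Poisson intervals as bars. Npas2 stands out in fibroblasts and mural cells, and Nr1d1, Dbp and, in Control, Per1 in mesothelial cells.

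Summed over limbs, mesothelial cells were the only large type with more UMIs of the negative than of the positive limb. In Control they held 222 positive and 327 negative UMIs, a ratio of 0.679, where the ratio was 2.60 in ECs, 2.79 in cardiomyocytes, 3.34 in mural cells, 3.56 in MPs and 4.25 in fibroblasts. In PD-1 inhibitor the mesothelial ratio was 0.879, against 1.95 to 3.39 in the other 5 types. The clusters were formed from the expression of these same nuclei, on 2000 variable genes, so these differences between types are a description and were not tested.

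Over all kept nuclei, 0 of the 9 members with UMIs were past 1.5-fold between the libraries, where 9.6% of 14372 genes were. All genes of the positive limb had a lower level in PD-1 inhibitor. Clock had 3032 UMIs in Control (250.5 CPM) and 2067 in PD-1 inhibitor (201 CPM), a log2 ratio of -0.32 (-0.40 to -0.24). Npas2 had 1996 and 1306 UMIs (165 and 127 CPM), with a log2 ratio of -0.38 (-0.48 to -0.28), and Arntl 1478 and 1142 UMIs (122 and 111 CPM), with -0.14 (-0.25 to -0.03). The negative limb showed no such common direction. Per1 (754 and 602 UMIs, -0.09, interval -0.25 to 0.07), Per2 (245 and 206, -0.02, -0.29 to 0.26) and Nr1d1 (747 and 665, 0.07, -0.09 to 0.22) had intervals that held 0. Cry1 (208 and 212 UMIs, 0.26, -0.02 to 0.54) and Cry2 (322 and 321 UMIs, 0.23, 0.00 to 0.46) lay on the higher side, as did Dbp at 0.44 (147 and 170 UMIs, 0.12 to 0.77). Of the 170 UMIs of Dbp, 17 (10%) lay in a single nucleus. The share of nuclei with a UMI of Dbp had a log2 ratio of 0.19 (-0.23 to 0.60). The median over the 9 members was -0.02, and that over all genes compared -0.01.

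The sums of the limbs add up the same UMIs and so are no separate support. Clock was the largest part of the positive limb and Arntl the smallest. The positive limb made up 538 CPM in Control (6506 UMIs) and 439 CPM in PD-1 inhibitor (4515 UMIs), a log2 ratio of -0.29 (-0.35 to -0.24). The negative limb made up 188 and 195 CPM (2276 and 2006 UMIs), a log2 ratio of 0.05 (-0.04 to 0.14). The ratio of positive to negative UMIs, which needs no scaling to a total, went from 2.86 to 2.25, a log2 ratio of -0.34 (-0.45 to -0.24).

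The length of the genes moved with this difference. All genes compared were ranked by their span in the genome and divided into 5 classes of nearly equal size. Arntl, Clock and Npas2 span 107, 94.9 and 169.5 kb and lie in the class of longest genes, whose median log2 ratio over all kept nuclei was -0.19 (2873 genes). Nr1d1 and Dbp, at 7.40 and 5.12 kb, lie in the class of shortest genes, whose median was 0.21 (2875 genes), and Per1, at 14.7 kb, in the next, with a median of 0.07. Cry2 (30.4 kb) lies in the middle class, at 0.01, and Per2 and Cry1 (43.3 and 53.4 kb) in the class above it, at -0.08. Taken relative to genes of like span, the positive limb was at -0.10, the negative limb at -0.03 and the ratio of the limbs at -0.08. Of the genes in the longest class, 23.0% were below Npas2, 29.8% below Clock and 58.1% below Arntl, so that no positive limb gene lay at the edge of its class. The member farthest from the median of its class was Cry1, 0.34 above it and with 10.6% of the class higher.

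In ECs, 1 of 9 members was past 1.5-fold, where 10.4% of 10701 genes were, and it was Dbp. It had 15 UMIs in Control (5.03 CPM) and 50 in PD-1 inhibitor (17.3 CPM), a log2 ratio of 1.75 (0.92 to 2.72). The UMIs came from 13 and 29 nuclei, with at most 2 and 4 in a nucleus, so the difference did not rest on a single nucleus. Nuclei with a UMI of Dbp were 0.462% in Control and 1.15% in PD-1 inhibitor, a log2 ratio of 1.29 (0.33 to 2.39), and 0.213% and 0.597% once each nucleus was thinned to 500 UMIs, which all kept nuclei had. In the class of shortest genes in ECs 0.0521% of 1921 genes lay above Dbp. Nr1d1 had 182 and 249 UMIs in ECs (61.1 and 86.0 CPM), a log2 ratio of 0.49 (0.21 to 0.78), with 21.8% of its class above it. Clock and Arntl were lower, with 767 and 607 UMIs (-0.30, interval -0.45 to -0.14) and 380 and 308 UMIs (-0.26, -0.48 to -0.04). Npas2 (162 and 151 UMIs, -0.06), Per1 (165 and 150, -0.10), Per2 (37 and 37, 0.04), Cry2 (66 and 75, 0.22) and Cry1 (54 and 35, -0.58, interval -1.24 to 0.06) had intervals that held 0.

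Most of the UMIs of Dbp in ECs lay in their largest cluster, led by Sall1 and Nrg1. It also held 1327 of the 2813 Control and 1421 of the 2512 PD-1 inhibitor nuclei of ECs. In that cluster Dbp had 9 and 33 UMIs (6.33 and 20.4 CPM), a log2 ratio of 1.63 (0.59 to 2.93). Nr1d1 had 108 and 180 UMIs there, with 0.55 (0.20 to 0.91). In the cluster led by Aplnr and Gm12002, with 989 and 696 nuclei, Dbp had 1 UMI in each library and Nr1d1 34 and 22, with a log2 ratio of -0.11 (-0.96 to 0.70). Counts as sparse as these could not show a difference in Dbp of the size seen in the other cluster. The cluster led by Mmrn1 and Reln had 4 and 11 UMIs of Dbp (15.3 and 53.6 CPM), a log2 ratio of 1.70 (0.06 to 3.92). The cluster led by Wnt9b and Hapln1 had 1 and 5, with 1.66 (-1.06 to 7.67). The higher Dbp was thus not particular to the Sall1 cluster. The ratio of positive to negative limb had a log2 ratio of -0.47 (-0.76 to -0.18) in the Sall1 cluster and -0.12 (-0.57 to 0.34) in the Aplnr cluster, and these intervals overlap.

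In fibroblasts 0 of 8 members compared were past 1.5-fold, where 9.62% of 10581 genes were. Npas2, at its highest here, had 1268 and 792 UMIs (424 and 319 CPM), a log2 ratio of -0.41 (-0.54 to -0.28). It was lower in 3 of the 4 fibroblast clusters, by 0.26 to 0.58 on the log2 scale, while the smallest, led by Chad and Wif1 with 114 and 90 nuclei, had 43 and 55 UMIs, which gave 0.19 (-0.41 to 0.80). Clock had 832 and 573 UMIs, with -0.27 (-0.43 to -0.12), and Arntl 594 and 456, with -0.11 (-0.29 to 0.06). Cry1, with 70 and 81 UMIs and 0.48 (-0.00 to 0.96), had 4.36% of its span class above it, and Per1, with 230 and 160 UMIs and -0.26 (-0.56 to 0.04), had 15% of its class below it. Nr1d1 (106 and 97 UMIs, 0.14), Per2 (103 and 89, 0.06) and Cry2 (125 and 110, 0.08) were close to 0. Dbp, with 13 and 30 UMIs, was under the minimum, and 17 of the 30 (56.7%) lay in a single nucleus. Without the nucleus with most UMIs in each library its log2 ratio was 0.63 in place of 1.44, and 11 and 9 nuclei held a UMI, so no difference of Dbp was read in fibroblasts.

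In cardiomyocytes 0 of 8 members were past 1.5-fold (16.5% of 9189 genes). Clock had 473 and 306 UMIs (196 and 152 CPM), at a log2 ratio of -0.37 (-0.58 to -0.16), Npas2 224 and 150, with -0.31 (-0.62 to -0.01), and Arntl 144 and 100, with -0.26 (-0.65 to 0.11). These values mixed clusters whose shares of the nuclei differed between the libraries. The largest of them had 757 and 535 nuclei, and the one led by Acta1 and Xirp2, with lower levels of the positive limb, had 477 and 505. Within the largest cluster the intervals held 0, with 384 and 230 UMIs of Clock (-0.15, -0.39 to 0.09), 188 and 126 of Npas2 (0.01, -0.33 to 0.34) and 120 and 69 of Arntl (-0.21, -0.66 to 0.23). Within the Acta1 cluster Clock had 73 and 57 UMIs (-0.57, -1.10 to -0.05). Over all cardiomyocytes the median of the longest class of genes was -0.26, and 36.8%, 43.4% and 50.1% of that class lay below Clock, Npas2 and Arntl. Nr1d1 (142 and 104 UMIs, -0.18, interval -0.57 to 0.19) and Dbp (42 and 24 UMIs, -0.53, interval -1.33 to 0.21) were on the lower side, where the shortest class had a median of 0.28, and 14.5% and 4.71% of that class lay below them. Per1 (77 and 63, -0.02), Cry1 (30 and 27, 0.11) and Cry2 (34 and 23, -0.29) had wide intervals around 0.

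In MPs 0 of the 4 members compared were past 1.5-fold (13.9% of 7956 genes). Clock had 388 and 223 UMIs (293 and 222 CPM), with -0.40 (-0.65 to -0.16), while Arntl had 130 and 113 (0.20, -0.18 to 0.57), Per1 92 and 65 (-0.10, -0.59 to 0.37) and Per2 28 and 29 (0.45, -0.35 to 1.25). The lower positive limb of MPs thus rested on Clock, and without it the log2 ratio of the limb was 0.04 in place of -0.26. It also rested in part on the Cd209a cluster, where the limb had 71 and 21 UMIs (-1.21, -2.01 to -0.51), since in the larger MP cluster, led by Ms4a14 and Hpgds, it had 477 and 327 UMIs (-0.17, -0.38 to 0.03). Clock alone had 335 and 210 UMIs in that larger cluster (-0.30, -0.56 to -0.05). In mural cells 1 of 6 members was past 1.5-fold (16.8% of 5196 genes), namely Per1 with 37 and 39 UMIs (54.0 and 81.2 CPM), at 0.59 (-0.10 to 1.28). Npas2 had 222 and 123 UMIs there (-0.34, -0.67 to -0.01) and Clock 199 and 113 (-0.30, -0.65 to 0.04). In T cells and adipocytes Clock was lower past 1.5-fold, with 58 and 26 UMIs (-0.85, -1.60 to -0.18) and with 124 and 8 UMIs (-1.19, -2.51 to -0.24), in types where 22.8% and 39.4% of genes were past it. The adipocytes of the PD-1 inhibitor library were 16 nuclei.

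**Figure D2:**
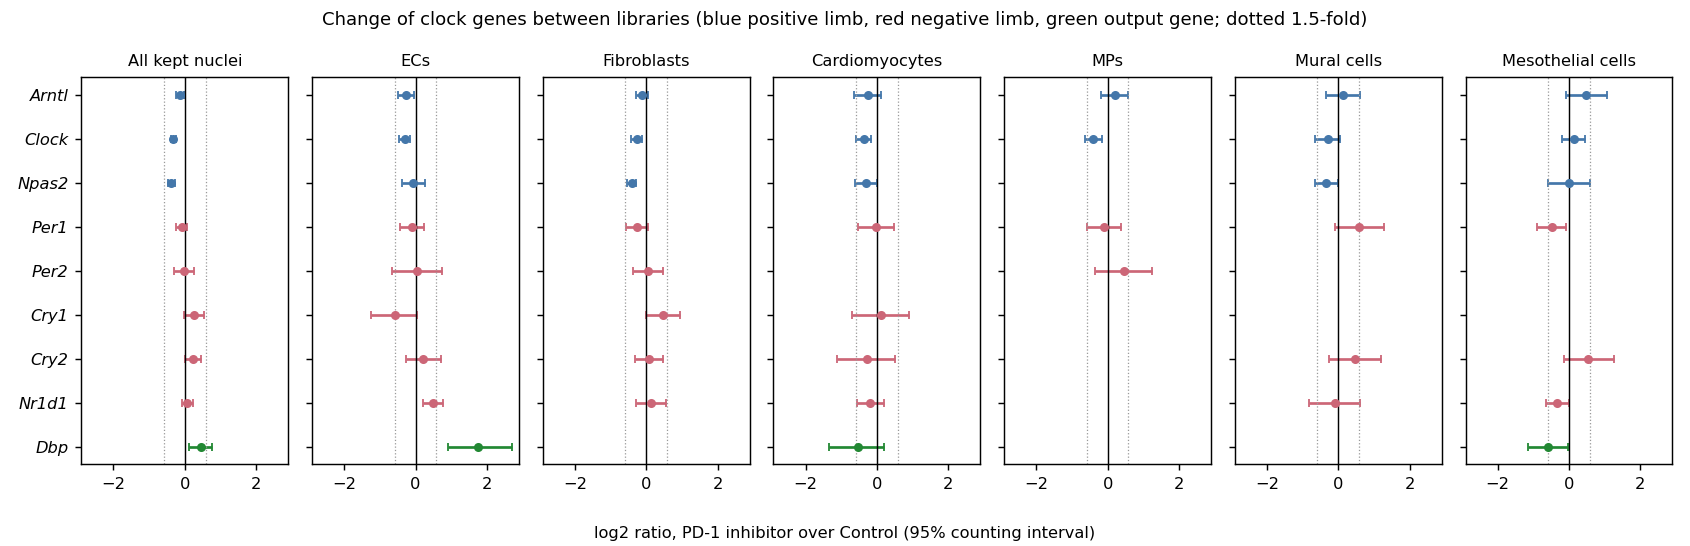
Log2 ratio of PD-1 inhibitor over Control for each clock gene with at least 50 UMIs, over all kept nuclei and in the 6 largest cell types, with 95% counting intervals; dotted lines mark 1.5-fold. Clock lies below 0 in each type except mesothelial cells. Dbp lies far above 0 in ECs and below it in mesothelial cells and, with an interval that holds 0, in cardiomyocytes.

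In mesothelial cells several genes lay on the other side of 0 than in ECs. For Dbp and Nr1d1 this was also so in cardiomyocytes (-0.53 and -0.18), where the intervals held 0. The mesothelial sums of the positive limb (0.18, -0.07 to 0.43) and of the negative limb (-0.19, -0.41 to 0.03) had intervals that held 0. None of the 7 members compared was past 1.5-fold (11.8% of 7293 genes). Dbp had 61 UMIs in Control (76.7 CPM) and 53 in PD-1 inhibitor (51.1 CPM), a log2 ratio of -0.58 (-1.15 to -0.03). Per1 had 111 and 103 UMIs (139.5 and 99.3 CPM), with -0.49 (-0.89 to -0.09), and Nr1d1 157 and 163 UMIs (197 and 157 CPM), with -0.33 and an upper bound just below 0. Arntl (40 and 73 UMIs, 0.48, -0.09 to 1.08), Clock (138 and 198, 0.14, -0.18 to 0.46) and Cry2 (28 and 53, 0.53, -0.15 to 1.25) lay on the higher side, and Npas2 (44 and 57) was at -0.01. Cry1, under the minimum with 9 and 34 UMIs, had 11.3 and 32.8 CPM. These nuclei were deeper in the PD-1 inhibitor library, with medians of 1291 and 1724 UMIs, and the shares of nuclei with a UMI of Dbp, Per1 and Nr1d1 had log2 ratios of -0.10 (-0.84 to 0.63), -0.07 (-0.56 to 0.42) and -0.00 (-0.46 to 0.45). After thinning to 500 UMIs per nucleus the shares were 2.27% and 2.38% for Dbp, 5.58% and 3.9% for Per1 and 7.23% and 5.63% for Nr1d1. The part of depth in the result was not tested.

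The balance of the limbs also differed in direction between mesothelial cells and the other large types. In PD-1 inhibitor nuclei the ratio of positive to negative UMIs was the lower one in 5 of the 6 largest types. It went from 2.60 to 1.95 in ECs (log2 ratio -0.41, interval -0.63 to -0.20), from 4.25 to 3.39 in fibroblasts (-0.33, -0.52 to -0.14) and from 3.34 to 2.35 in mural cells (-0.51, -0.92 to -0.10). In cardiomyocytes it went from 2.79 to 2.38 (-0.23, -0.53 to 0.07) and in MPs from 3.56 to 2.88 (-0.31, -0.71 to 0.10), where the intervals held 0. Within the largest cardiomyocyte cluster the log2 ratio was 0.06 (-0.32 to 0.43), and within the Acta1 cluster, which took a larger share of the PD-1 inhibitor nuclei, -0.37 (-0.97 to 0.22). In mesothelial cells it went from 0.679 to 0.879 (0.37, 0.04 to 0.71). Relative to genes of like span, the values were -0.12 in ECs, -0.10 in fibroblasts, 0.17 in cardiomyocytes, -0.07 in MPs, -0.23 in mural cells and 0.42 in mesothelial cells. The difference between short and long genes was also smaller in mesothelial cells than in the other types, with medians of 0.06 and -0.02 in the shortest and longest classes against 0.23 and -0.17 in ECs and 0.28 and -0.26 in cardiomyocytes. In T cells the ratio was 3.09 and 1.26, from 99 and 53 positive and 32 and 42 negative UMIs, a log2 ratio of -1.28 (-2.17 to -0.42).

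**Figure D3:**
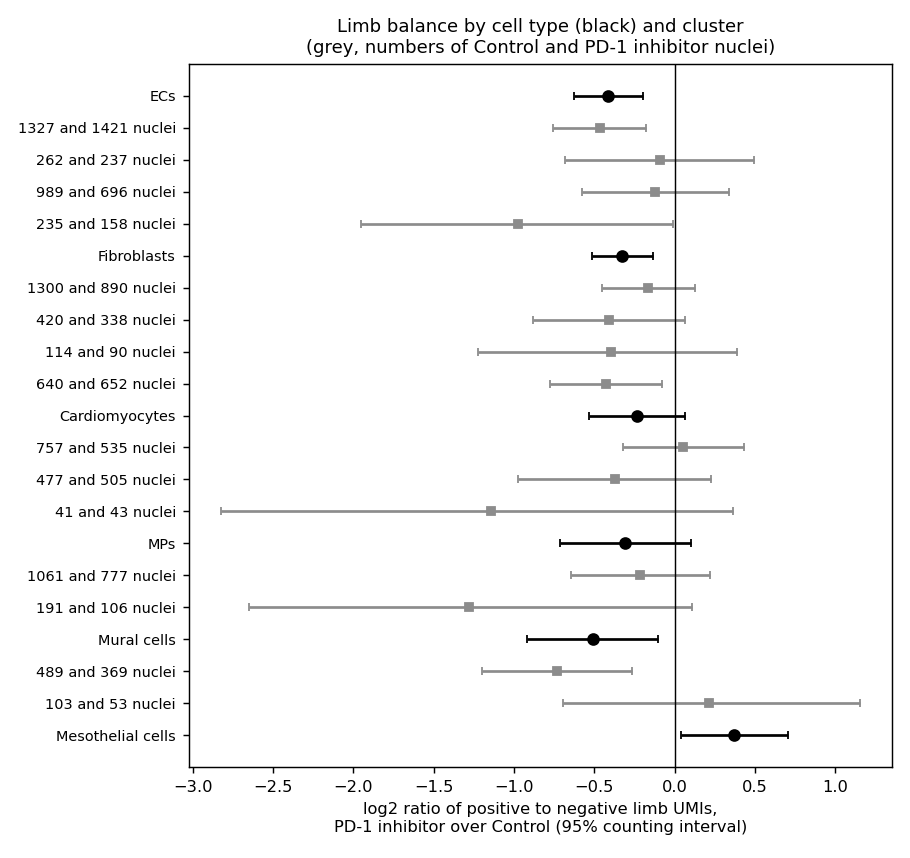
Log2 ratio, PD-1 inhibitor over Control, of the ratio of positive to negative limb UMIs in the 6 largest cell types (black circles) and in their clusters (grey squares, named by their numbers of Control and PD-1 inhibitor nuclei), with 95% counting intervals. The types from ECs to mural cells lie between -0.51 and -0.23, and mesothelial cells at 0.37.

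**Figure D4:**
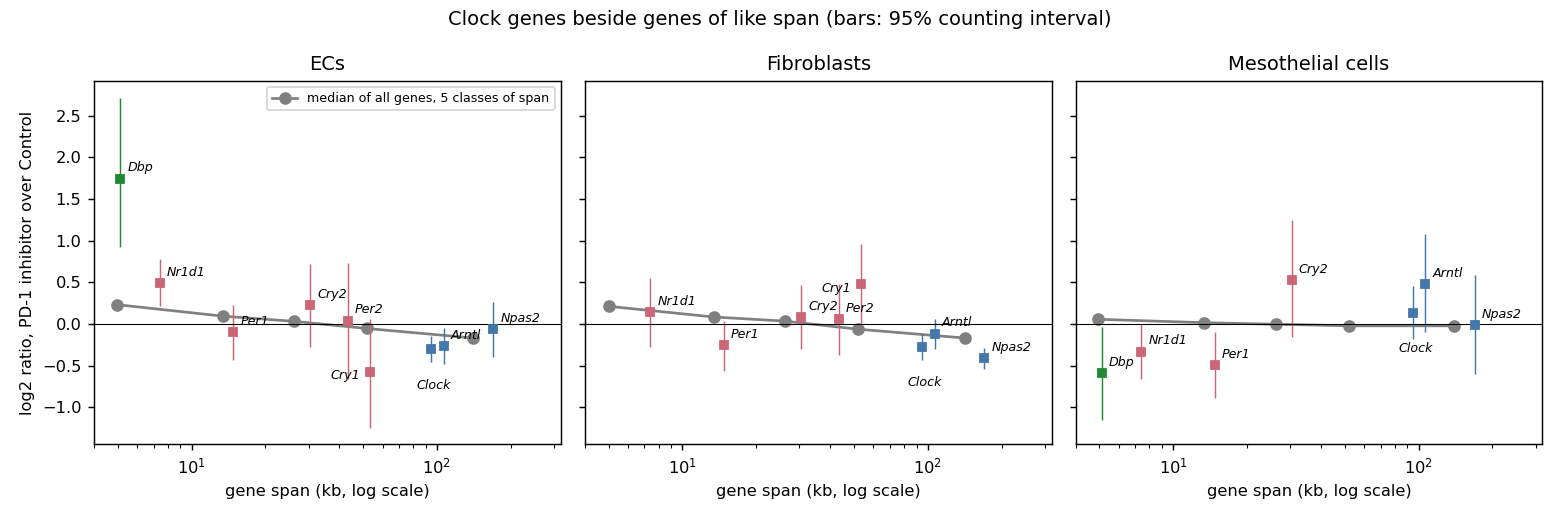
Log2 ratio, PD-1 inhibitor over Control, of the clock genes against gene span in kb on a log axis, in ECs, fibroblasts and mesothelial cells, with 95% counting intervals; the grey line joins the medians of all genes in 5 classes of span. The median falls with span in ECs and fibroblasts and is nearly level in mesothelial cells, and Dbp in ECs lies far above the line.

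A list of 24 further clock genes was read beside the members. Over all kept nuclei 2 of 23 genes compared were past 1.5-fold, both lower, beside 9.6% of all genes, and their median was -0.03 beside -0.01. Noct, a rhythmic gene for the phosphatase nocturnin, had 391 and 180 UMIs (32.3 and 17.5 CPM), a log2 ratio of -0.88 (-1.15 to -0.63), and Rorb, a nuclear receptor that competes with REV-ERB, had 61 and 27 UMIs, with -0.93 (-1.65 to -0.27). Rora, for a receptor of the same family, was lower within 1.5-fold, with 8105 and 5181 UMIs and -0.41 (-0.46 to -0.36). Nr1d2, for REV-ERB beta, had 881 and 855 UMIs and 0.19 (0.05 to 0.33).

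In the 6 largest types no more than 2 list genes were past 1.5-fold, and these counts stood below the share over all genes of the type, or close to it in mesothelial cells. Tef encodes a PAR bZIP factor like Dbp. Of the 19 list genes compared in ECs it was the 1 past 1.5-fold (10.4% of all genes), with 176 UMIs in Control (59.1 CPM) and 327 in PD-1 inhibitor (113 CPM) and a log2 ratio of 0.93 (0.67 to 1.21). In the EC cluster led by Sall1 and Nrg1 it had 130 and 274 UMIs, with 0.88 (0.58 to 1.20), and in that led by Aplnr and Gm12002 20 and 9, with -0.60 (-1.96 to 0.56). In mesothelial cells it had 134 and 99 UMIs (168 and 95.4 CPM), a log2 ratio of -0.82 (-1.21 to -0.43). There the share of nuclei with a UMI had a log2 ratio of -0.42 (-0.91 to 0.05), and after thinning to 500 UMIs the shares were 8.06% and 3.25%. Both windows around the starts of Tef held an E-box, while the windows searched for Nr1d2 and Usp2 held no match to any of the elements. Other genes of the list were not searched, and whether these elements bear on the levels was not tested. In MPs Tef was the 1 of 12 genes past 1.5-fold (13.9% of all genes), with 38 and 59 UMIs and 1.02 (0.42 to 1.66), whereas cardiomyocytes had 157 and 127, with -0.04 (-0.39 to 0.30). Usp2, a rhythmic deubiquitinase, was the 1 of 19 genes past 1.5-fold in fibroblasts (9.62% of all genes), with 153 and 82 UMIs and -0.63 (-1.04 to -0.24), and was, with Tef, 1 of 2 past it among 16 genes in mesothelial cells (11.8% of all genes), with 63 and 49 UMIs and -0.74 (-1.31 to -0.18). Fbxw11, for an F-box protein that acts on period proteins, was the 1 of 11 in mural cells (16.8% of all genes), with 93 and 41 UMIs and -0.66 (-1.23 to -0.12).

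Some genes of the clock also answer to other signals, and genes of these signals differed between the libraries. Immediate early genes, which include Fos and Jun and can be induced by tissue handling, had 11415 UMIs over 8 genes in Control and 4075 in PD-1 inhibitor, a log2 ratio of -1.25 (-1.30 to -1.20). The ratio was -1.39 in ECs, -1.31 in fibroblasts, -0.75 in cardiomyocytes, -1.0 in MPs, -0.66 in mural cells and -1.59 in mesothelial cells. Per1 is also induced by glucocorticoids, and 6 other genes of that response, Fkbp5 and Tsc22d3 among them, summed to a log2 ratio of -0.21 (-0.26 to -0.16) over all kept nuclei. The sum was at -0.11 in ECs, -0.04 in fibroblasts, -0.38 in cardiomyocytes, -0.11 in MPs and 0.06 in mural cells. In mesothelial cells it was at 0.31 (0.12 to 0.49). The mitochondrial share was 1.76% and 2.12% of the UMIs and that of Malat1, a nuclear RNA, 5.67% and 5.34%. The part of these in the differences of the clock genes was not tested.

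Likeness to other genes was measured over the log2 ratios in ECs, fibroblasts, cardiomyocytes and MPs, among 6850 genes with at least 50 UMIs in each of these 4 types. Arntl, Clock and Per1 had that depth. For Clock, with the lowest ratio of the 3 over all kept nuclei, the nearest genes were Lrch3, Sgms1 and Fer, at Euclidean distances of 0.0605, 0.0771 and 0.0793. For Per1, with the highest, they were Cic, Rai1 and March7, at 0.0430, 0.0563 and 0.0575. For Arntl, at -0.26 in ECs and at 0.20 in MPs, where the interval held 0, the nearest was Mbtps2, at 0.0834.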

How the data were processed

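Nuclei of 1 Control and 1 PD-1 inhibitor heart library were analysed. The authors built the libraries with a GEXSCOPE kit for nuclei and deposited UMI counts of each gene in each nucleus as whole numbers that had not been normalized. The submitters' processing notes name GRCm38 and mm10, and the aligner and counter are not given in the sources used here. A minimum of 200 genes per nucleus and a maximum of 20% for the mitochondrial share left out 83 and 15 nuclei, and Scrublet in scanpy 1.11.5 removed 592 and 308 doublets (5.85% and 3.87%). Nuclei were scaled to 10000 UMIs and clustered by the Leiden algorithm (resolution 1, 30 components of 2000 variable genes, 15 neighbours), and clusters were named from a fixed list of markers.

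UMIs were summed per cell type and library. Log2 ratios had 0.5 UMI added to each sum, and intervals are exact at 95%. With 1 library per group there was no test. The members and lists were chosen with earlier results of these data known. In the further list, all genes past 1.5-fold with at least 50 UMIs were named in all kept nuclei and in ECs, fibroblasts, cardiomyocytes and MPs, and those of mural and mesothelial cells after their values were seen, as were Rora and Nr1d2. A further result that this rule names is not reported here. The genes nearest to Arntl were named likewise. Gene spans came from GENCODE vM21, and promoters from RefSeq (GRCm38.p6). The log2 ratios and their intervals were tested on simulated EC counts, and the interval of a ratio of limbs on simulated counts. These counts had counting error only, without the further scatter among nuclei, and the other steps were not tested in this way. Alternatives covered filters, doublets, clustering, scaling, span, thinning and the make-up of the lists.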

Additional observations from a re-analysis of the deposited data

Results flagged for a closer look

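Dbp and Nr1d1 had counting intervals on opposite sides of 0 in ECs and in mesothelial cells. For Dbp the log2 ratio of PD-1 inhibitor over Control was 1.75 in ECs (15 and 50 UMIs) and -0.58 in mesothelial cells (61 and 53 UMIs, upper bound -0.03). For Nr1d1 it was 0.49 in ECs (182 and 249 UMIs) and -0.33 in mesothelial cells (157 and 163 UMIs, upper bound -0.004). Among mesothelial nuclei the variance of UMIs was 2.26 and 2.32 times the mean for Dbp and 2.80 and 2.36 times for Nr1d1. Intervals with upper bounds this near 0 are therefore too narrow to settle the sign. Mesothelial nuclei were deeper in PD-1 inhibitor, with medians of 1291 and 1724 UMIs, and the shares of these nuclei with a UMI had log2 ratios of -0.10 (-0.84 to 0.63) for Dbp and -0.00 (-0.46 to 0.45) for Nr1d1. After thinning to 500 UMIs per nucleus the shares were 2.27% and 2.38% for Dbp and 7.23% and 5.63% for Nr1d1. A share of nuclei is another measure than CPM, and only 36 and 32 mesothelial nuclei held a UMI of Dbp before thinning. Such shares cannot decide the sign of Dbp at equal depth. With 1 library per group the difference between the cell types was not tested, and the intervals cover counting error only.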

How the results depend on the processing

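Of 15 limb results (3 measures over all kept nuclei and in ECs, fibroblasts, cardiomyocytes and MPs), 8 had an interval off 0, and 7 of these kept their sign under every alternative run. The exception was the positive limb of MPs, at 0.042 without Clock. Relative to genes of the same span class, the positive limb moved to -0.10 in all kept nuclei, -0.088 in ECs, -0.13 in fibroblasts and -0.072 in cardiomyocytes, and the ratio of the limbs, an alternative chosen after seeing the data, to -0.078, -0.12, -0.10 and 0.17. With nuclei with a UMI in place of UMIs, also chosen after seeing the data, the positive limb was at -0.16 in all kept nuclei and -0.10 in fibroblasts. With each nucleus thinned to 500 UMIs, the negative limb of fibroblasts was at -0.15 and the ratio of the limbs there at -0.11. The count of further clock genes past 1.5-fold went to 1 over all kept nuclei at a minimum of 200 UMIs. In cardiomyocytes it went to 3 at a minimum of 20 UMIs and to 0 at 200, and in MPs to 4 and 0. Of 38 member results, 14 had an interval off 0 and 13 of these kept their sign, the exception being Arntl over all kept nuclei, at 0.05 relative to its span class. Of the alternative values of limbs and list counts, 18 lay outside the interval of the reported value (for counts, over 1.5 times from it) and 222 did not, and of those of members 19 and 611. No paired analysis was possible because each group has 1 library. Depth limits Per2, Cry1, Cry2 and Dbp most, which had under 350 UMIs in each library, and the spread between hearts of a group is unknown.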
